A study of Mus musculus with 2 samples.

Results

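The cells described here were fibroblasts of the mouse aorta that carried more RNA of Entpd2, Cpz, Gdf10, Bace2 and Tspan11 than of the genes of either other group of aortic fibroblasts. A barcode was kept as a cell with at least 1000 UMIs (unique molecular identifiers, each standing for 1 captured RNA molecule), 500 genes or more, and no more than 10% of its UMIs from the mitochondrial genome. A fibroblast had at least 5 UMIs of Dcn, Lum and Pdgfra together and more of these than of the contractile genes Acta2, Tagln and Myh11. Of these fibroblasts, the Entpd2 Cpz Gdf10 fibroblasts were chosen by a sum of at least 3 UMIs over Entpd2, Cpz, Gdf10, Bace2 and Tspan11 that exceeded both the sum over Pex5l, Fmod, Ccn5, Vegfd and Rbp4 and the sum over Tmem100, Opcml, Ly6c1, Cd55 and Wnt2. The rule found 1718 cells among 5860 fibroblasts and 10116 kept cells, 880 of them in the knock-in and 838 in the wild-type library. Fibroblasts led by the second or the third sum are called Fmod Ccn5 fibroblasts (1640 knock-in and 1492 wild-type cells) and Tmem100 Ly6c1 fibroblasts (326 knock-in and 453 wild-type cells).

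The knock-in library came from mice named MGP-KI in the labels, which carry a mutated matrix Gla protein, and the other library from wild-type mice. Mice of both sexes were taken at an age of 1 month, and both libraries carry the batch label 1. By Xist and Y-linked UMIs, 36.4% of knock-in and 30.5% of wild-type cells of the group were called female. Called male were 32.4% and 52.9%, and the rest had no call. Ratios over all cells of the group were not adjusted for sex. The sources used here give neither the altered residue nor the number of mice behind each library nor the hour of collection. The adventitia had been dissected away, the aortas were digested with Liberase, and dead cells taking up DAPI were removed by flow cytometry before droplet capture with 10x Genomics reagents. With 1 library for each genotype, no difference between the libraries has a replicate check, no test was made and no p-value is given, and all intervals cover counting error only.

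Fibroblasts of an artery lie mainly in its outer layer, where they build collagen and elastic fibres and release signals to muscle, immune and nerve cells. Entpd2 encodes a cell-surface enzyme that breaks down extracellular ATP, Cpz a secreted carboxypeptidase with a domain that resembles Wnt receptors, and Gdf10 a secreted relative of the bone morphogenetic proteins (BMPs). Bace2 encodes a membrane protease and Tspan11 a membrane protein of the tetraspanin family. Matrix Gla protein, the protein altered in the knock-in mice, is secreted by vascular cells, restrains calcification and binds BMPs, and the title of the study names BMP-regulated cell differentiation as its subject.

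The knock-in library held 85831737 UMIs and the wild-type library 79626104. The Entpd2 Cpz Gdf10 fibroblasts were shallower in the knock-in library, with a median of 9457 UMIs and 2956.5 genes per cell, against 18479 UMIs and 4427.5 genes in the wild-type library, and their summed UMIs were 8718919 and 15339232 in that order. Their median depth was also the lowest of the 3 groups in each library. Levels below are in CPM, which divides the summed UMIs of a gene by those of all genes in the same cells and multiplies by 1000000. A ratio between the libraries is the log2 of knock-in over wild-type CPM. Between the kept cells of the libraries 4 barcodes were shared.

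The sum of the 5 genes that chose the cells had a median of 20 UMIs in knock-in cells and 29 in wild-type cells, with maxima of 90 and 109. All 5 genes were detected in 46.1% of knock-in cells and 67.1% of wild-type cells. Just inside the lower limit, 38 knock-in and 12 wild-type cells had a sum of exactly 3, and just outside it 28 knock-in and 5 wild-type cells had a sum of 2 that led the other sums. The knock-in cells just inside carried 281 CPM of Entpd2, 47.9 CPM of Meox2 and 1308 CPM of Serpinf1, and those just outside carried 63.2 CPM, 0 CPM and 1107 CPM. Their wild-type counterparts held 265 CPM inside and 236 CPM outside for Entpd2, and these few cells give wide counting error. A lead of only 1 UMI over another sum was found in 65 knock-in and 36 wild-type cells, while 36 knock-in and 38 wild-type cells were left out because of a tie.

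As a description of the choice, Entpd2 stood at 455 CPM in knock-in and 438 CPM in wild-type Entpd2 Cpz Gdf10 fibroblasts. The same gene stood at 222 CPM in knock-in and 177 CPM in wild-type Fmod Ccn5 fibroblasts, and at 189 CPM and 230 CPM in the Tmem100 Ly6c1 fibroblasts of those libraries. Entpd2 thus lay at a lower level in the other fibroblasts and was not absent from them. Gdf10 stood at 853 CPM in knock-in and 461 CPM in wild-type cells, which gives it the widest gap between the libraries among the 5 genes of the first sum, at 0.89 (95% counting interval 0.84 to 0.93). Cpz differed by 0.12, Tspan11 by 0.41 and Bace2 by -0.19. Entpd2 and Cpz differed in sign between the sexes, at 0.14 and 0.33 within female and -0.14 and -0.17 within male cells. In cells thinned to 5000 UMIs, Entpd2 was seen in 77.2% of knock-in and 82.3% of wild-type cells of the group. Macrophages, which should lack it, gave 1.04% and 1.45% at that depth. Without thinning, the shares of the group were 88.9% and 95.9%.

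**Figure D1:**
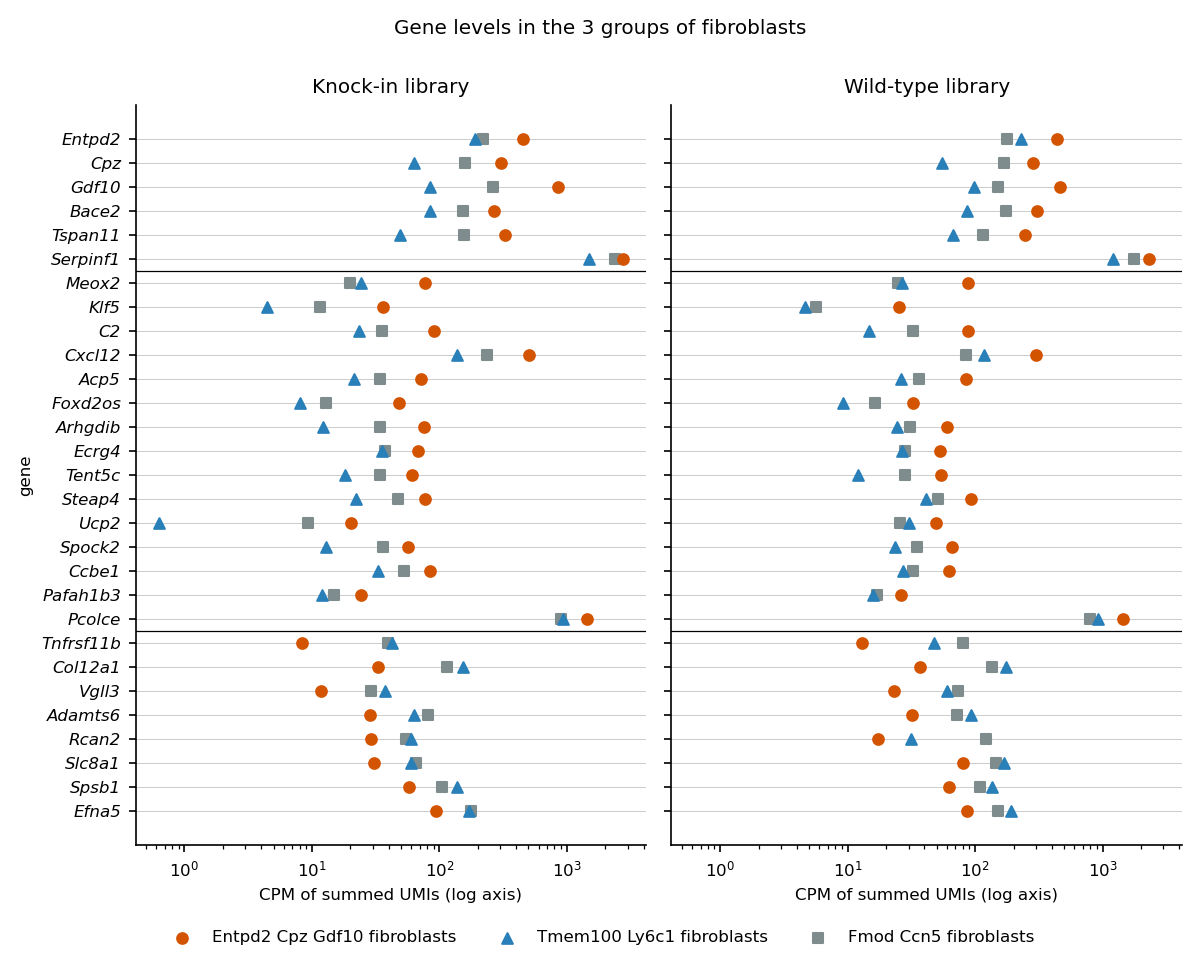
Levels of the rule genes and Serpinf1 (top), of genes higher (middle) and of genes lower (bottom) in Entpd2 Cpz Gdf10 fibroblasts, as CPM of summed UMIs on a log axis, in the knock-in library (left) and the wild-type library (right). Circles stand for Entpd2 Cpz Gdf10, triangles for Tmem100 Ly6c1 and squares for Fmod Ccn5 fibroblasts. Each circle lies to the right of both other symbols in the upper 2 blocks, as for Meox2 at 76.7 CPM in knock-in and 88.2 CPM in wild-type cells, and to the left of them in the lower block.

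The label was checked against genes outside the rule. Serpinf1, which encodes the secreted pigment epithelium-derived factor and belongs to the label but not to the rule, stood at 2756 CPM in knock-in and 2326 CPM in wild-type Entpd2 Cpz Gdf10 fibroblasts. In the other groups it ran at 2377 CPM and 1755 CPM (Fmod Ccn5) and at 1485 CPM and 1214 CPM (Tmem100 Ly6c1), so its lead was small. All 8 fibroblast markers outside the rule, among them Col1a1, Col3a1 and Mmp2, were detected, with summed levels of 69966 CPM in knock-in and 83959 CPM in wild-type cells. The 7 pericyte markers summed to 719 CPM in knock-in and 565 CPM in wild-type cells, nearly all from Ndufa4l2, Abcc9 and Kcnj8, while Higd1b was at 0 UMIs in both. The pericyte markers reached 625 CPM in knock-in and 619 CPM in wild-type Fmod Ccn5 fibroblasts too. The 8 Schwann or glial markers summed to 92.8 CPM in knock-in and 59.3 CPM in wild-type cells, of which S100b gave 88.3 CPM and 55.7 CPM, and Sox10 and Gfra3 were at 0 in both.

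Most macrophage UMIs lay in few cells, as did the mesothelial UMIs of the wild-type library, and contractile UMIs were spread over more cells. The 8 macrophage markers summed to 128 CPM in knock-in and 112 CPM in wild-type cells, against about 24494 CPM and 24769 CPM in macrophages, and the 10 cells richest in them held 76.3% of these UMIs in the knock-in and 67.4% in the wild-type library. Mesothelial markers had 0 UMIs over all 7 genes in knock-in cells, where the floor of 3 counts equals 0.344 CPM, and 655 UMIs in wild-type cells, 98.0% of them in 10 cells. Contractile RNA of Acta2, Tagln and Myh11, which the choice of fibroblasts limits, came to 200 CPM in knock-in and 74.6 CPM in wild-type cells and was seen in 66.1% and 53.6% of them. The 8 smooth muscle markers outside the rule summed to 102 CPM in knock-in and 57.6 CPM in wild-type cells. Barcodes of 10 to 100 UMIs were taken to carry free RNA. If all RNA of a marker list in the group came from there, free RNA would make up 6.29% of knock-in and 3.16% of wild-type UMIs by the macrophage markers, 1.32% and 1.15% by the contractile genes, and 3.81% and 7.20% by the other smooth muscle markers. Each value is an upper limit, because all RNA of the list was counted as free RNA, and the macrophage values include the cells richest in those markers. The limits differ severalfold, and the smallest, 1.32% and 1.15%, rest on contractile genes, whose RNA the choice of fibroblasts limits. Subtractions below by the other 2 lists use larger shares than these. The share of free RNA itself was not measured. Endothelial markers summed to 69.8 CPM and 34.6 CPM and perineurial markers to 91.2 CPM and 66.8 CPM in knock-in and wild-type cells. Lymphocyte markers stayed at 3 UMIs in knock-in and 7 UMIs in wild-type cells.

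The group made up nearly the same share of fibroblasts in each library, and a smaller share of all cells in the knock-in library. Of 3009 knock-in fibroblasts 29.2% belonged to it (Clopper-Pearson interval 27.6 to 30.9), and of 2851 wild-type fibroblasts 29.4% (27.7 to 31.1). Of all kept cells the shares were 13.7% (12.9 to 14.6) in the knock-in and 22.7% (21.3 to 24.1) in the wild-type library, where smooth muscle cells were 46.8% and 11.04% of kept cells in that order. Tmem100 Ly6c1 fibroblasts made up 10.8% of knock-in and 15.9% of wild-type fibroblasts. Within female cells the group was 29.5% of knock-in and 28.7% of wild-type fibroblasts, and within male cells 26.8% and 27.1%. Thinning every cell to 5000 UMIs and applying the rule anew gave 27.2% and 26.7% of fibroblasts. In cells of 8000 to 20000 UMIs the shares came apart, at 29.1% of knock-in (26.97 to 31.3) and 38.7% of wild-type fibroblasts (35.6 to 42.0), and the part that depth plays in this was not tested. The dissection, the digestion and the live-cell sort can set these shares too, and their part cannot be told apart from that of the genotype.

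**Figure D2:**
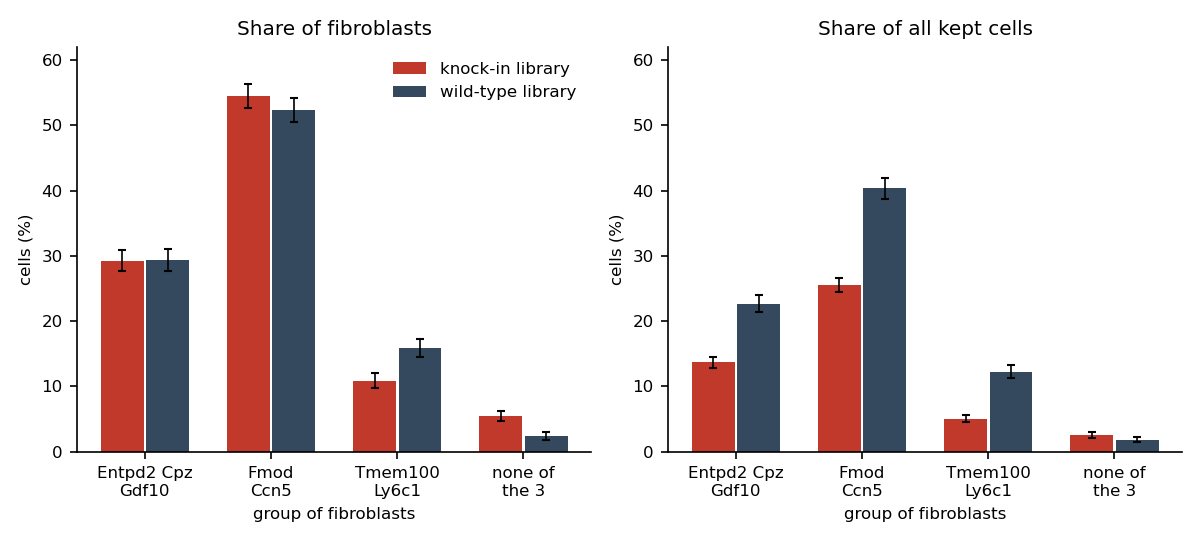
Share of each group of fibroblasts among all fibroblasts (left) and among all kept cells (right), in percent, with knock-in bars left of wild-type bars and 95% Clopper-Pearson intervals as error bars. Entpd2 Cpz Gdf10 fibroblasts stand at 29.2% of knock-in and 29.4% of wild-type fibroblasts, but at 13.7% and 22.7% of kept cells.

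Few genes set the group apart from both other groups in both libraries. At least 1.5-fold higher in all 4 comparisons were 62 of 12393 genes (0.5%), and at least 1.5-fold lower were 81 (0.654%), with the genes of the rule counted too. These are descriptions, because the cells were chosen by genes of the same cells. Meox2, a homeobox transcription factor of mesoderm, led the 15 genes outside the rule with the widest margins. It stood at 76.7 CPM in knock-in and 88.2 CPM in wild-type cells of the group, against 19.8 CPM and 24.7 CPM in Fmod Ccn5 fibroblasts and 24.4 CPM and 26.8 CPM in Tmem100 Ly6c1 fibroblasts. Klf5, a zinc finger transcription factor, followed with 36.0 CPM in knock-in and 25.3 CPM in wild-type cells, while the other 4 levels lay between 4.41 CPM and 11.5 CPM. The long noncoding RNA Foxd2os (48.2 CPM in knock-in and 32.3 CPM in wild-type cells) runs beside Foxd2, and no source used here says whether the counting used the strand.

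Several of the 15 encode secreted proteins. Cxcl12, a chemokine that retains immune and stem cells, reached 501 CPM in knock-in and 301 CPM in wild-type cells. It stood at 237 CPM and 85.3 CPM in Fmod Ccn5 fibroblasts, and at 138 CPM and 117 CPM in Tmem100 Ly6c1 fibroblasts. The complement component C2, a protease of the classical pathway, stood at 90.6 CPM in knock-in and 87.7 CPM in wild-type cells, and at no more than 35.6 CPM in the other 4 sets of cells. Pcolce, which speeds the trimming of procollagen, reached 1431 CPM and 1442 CPM, against 906 CPM and 789 CPM in Fmod Ccn5 and 928 CPM and 914 CPM in Tmem100 Ly6c1 fibroblasts. Ccbe1, a secreted protein needed for the activation of the lymphatic growth factor VEGF-C, reached 83.7 CPM in knock-in and 61.9 CPM in wild-type cells. The proteoglycan Spock2, the secreted peptide precursor Ecrg4, the phosphatase Acp5, the metalloreductase Steap4, the GDP-dissociation inhibitor Arhgdib, Tent5c, Pafah1b3 and the mitochondrial carrier Ucp2 completed the list. Ucp2 differed most between the libraries, with 20.2 CPM in knock-in and 49.4 CPM in wild-type cells.

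The 8 genes with the widest margins below the other groups included regulators of bone and matrix. Tnfrsf11b, which encodes the decoy receptor osteoprotegerin, stood at 8.37 CPM in knock-in and 13.0 CPM in wild-type cells. It stood at 39.5 CPM and 79.9 CPM in Fmod Ccn5 fibroblasts, and at 42.5 CPM and 47.3 CPM in Tmem100 Ly6c1 fibroblasts. Col12a1, a collagen that binds to the surface of fibrils, was at 32.8 CPM in knock-in and 36.9 CPM in wild-type cells and between 116 CPM and 175 CPM elsewhere. The transcriptional cofactor Vgll3, the protease Adamts6, the calcineurin regulator Rcan2, the sodium-calcium exchanger Slc8a1, Spsb1 and the ephrin Efna5 made up the rest. Smooth muscle cells carried more Rcan2 (748 CPM) and Slc8a1 (236 CPM) than the group did in the knock-in library.

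For genes that separate the other 2 groups, the Entpd2 Cpz Gdf10 fibroblasts mostly lay between them. This is a description, because the rule set all 3 groups and the genes were picked in the same cells. The share that would lie between by this choice alone was not computed. Of 269 genes outside the rule that were at least 2-fold higher in Fmod Ccn5 than in Tmem100 Ly6c1 fibroblasts in both libraries, 223 (82.9%) had a level between those groups in both libraries. Of 313 genes at least 2-fold higher in Tmem100 Ly6c1 fibroblasts, 254 (81.2%) did. Ly6a, which marks vascular progenitor cells in mice, showed this with 836 CPM in knock-in and 935 CPM in wild-type cells, between 215 CPM and 158 CPM in Fmod Ccn5 and 2117 CPM and 2084 CPM in Tmem100 Ly6c1 fibroblasts. Eln, which encodes elastin, had the opposite slope, with 2324 CPM in knock-in and 4575 CPM in wild-type cells, between 8711 CPM and 16046 CPM (Fmod Ccn5) and 1180 CPM and 3826 CPM (Tmem100 Ly6c1). Dpp4, another progenitor marker, did not lie midway. It had 0.573 CPM in knock-in and 4.37 CPM in wild-type cells, against 54.1 CPM and 84.4 CPM in Tmem100 Ly6c1 fibroblasts. In the wild-type cells of the group, 5 cells held 80.6% of the Dpp4 UMIs.

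Between the libraries, 11754 genes had at least 50 UMIs in the Entpd2 Cpz Gdf10 fibroblasts. Of these 786 (6.69%) were at least 1.5-fold higher and 951 (8.09%) at least 1.5-fold lower in knock-in cells, and the median log2 ratio was -0.08. Of the higher genes 382, and of the lower genes 459, were also at least 1.5-fold apart in that direction in the other 2 groups, which come from the same libraries. In 29 genes both differences exceeded 1.5-fold with opposite signs.

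The genes with the widest margins above wild type were mostly clock genes and genes that macrophages or muscle cells carry at high levels. Dbp, a transcription factor whose level follows the daily clock, stood at 390 CPM in knock-in and 21.7 CPM in wild-type cells, a ratio of 4.17 (4.01 to 4.33). Hlf (2.85) and Nr1d1 (2.42), further clock outputs, lay on the same side, and the clock activators Arntl (-4.28) and Npas2 (-4.06) on the other. Over the clock list 12 of 18 genes were at least 1.5-fold higher (66.7%) and 4 lower (22.2%) in knock-in cells, against 6.69% and 8.09% over all genes. The median of the list was 1.22 against 1.16 in the other 2 groups. The hour of collection cannot be told apart from the genotype here. Inmt, an enzyme that methylates indoles and other amines, stood at 259 CPM in knock-in and 29.8 CPM in wild-type cells, and was seen in 43.2% and 17.1% of cells. Its ratio was 4.22 within female and 2.59 within male cells. Mdga2, a membrane protein known from synapses, stood at 36.0 CPM in knock-in cells and 3.32 CPM in wild-type cells, where 5 cells held 62.7% of its UMIs. The histone gene Hist2h2aa1 (22.6 CPM in knock-in and 2.61 CPM in wild-type cells) has near-identical copies in the genome, so its counts are uncertain.

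Genes with the widest margins below wild type included hormone and matrix genes. Prlr, the prolactin receptor, stood at 6.19 CPM in knock-in and 49.4 CPM in wild-type cells (-3.00, interval -3.42 to -2.60). The matrix proteins Spon2 (4.01 CPM in knock-in and 29.2 CPM in wild-type cells) and Cilp (31.7 CPM and 156 CPM) were lower, and Cilp was seen in 10.6% of knock-in and 40.6% of wild-type cells. Arhgap20, a GTPase-activating protein, had 15.7 CPM in knock-in and 75.1 CPM in wild-type cells, and it was seen in 53.7% of the wild-type cells. Mest, an imprinted gene of embryonic growth, had 6.65 CPM and 32.1 CPM, and the kinase Nrk had 10.3 CPM and 43.9 CPM in knock-in and wild-type cells. Hddc3 and Rnaset2a were lower as well, by -2.15 and -1.98, and Rnaset2a has a near-identical neighbour, Rnaset2b. Sntg1 and Col8a1 rested on few cells: 5 cells held 12 of the 16 knock-in UMIs of Sntg1 and 59.9% of its wild-type UMIs, and for Col8a1, a collagen of vessel walls, the shares were 64.2% and 51.7%. Within female cells Sntg1 differed by -0.77 (interval -1.99 to 0.34).

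**Figure D3:**
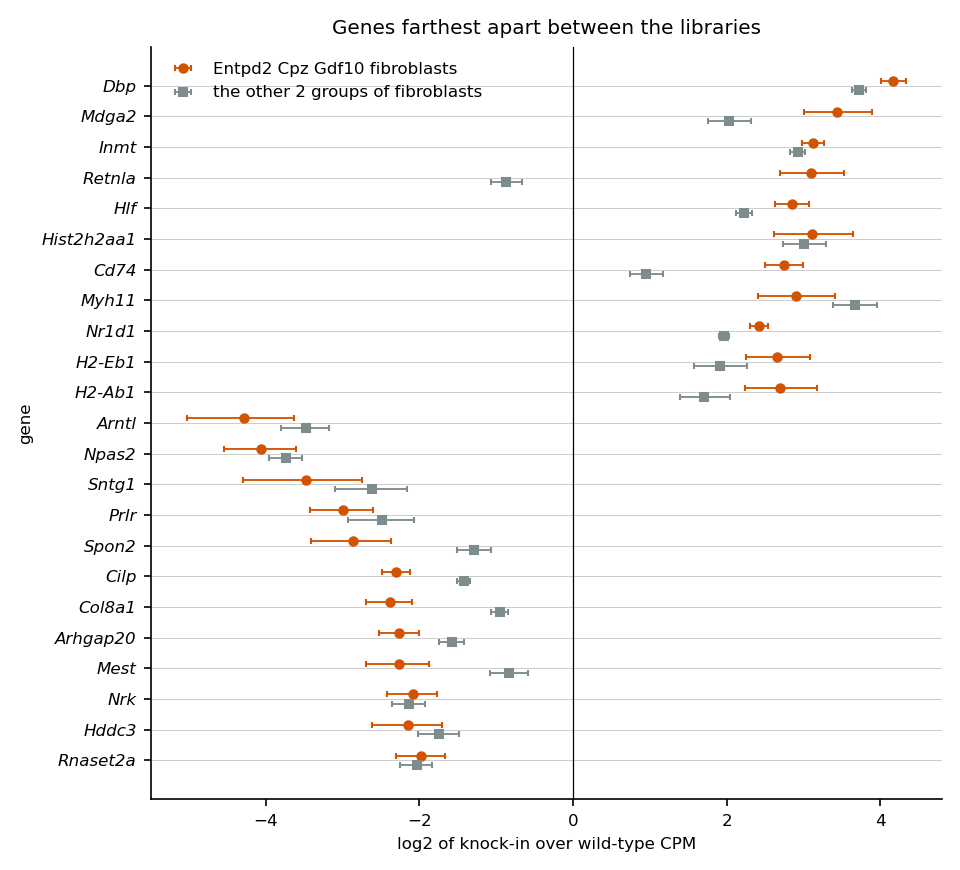
Genes with the widest margins above and below wild type, as log2 of knock-in over wild-type CPM with 95% counting intervals. Circles show Entpd2 Cpz Gdf10 fibroblasts and squares the other 2 groups of fibroblasts. Dbp lies at 4.17 and Arntl at -4.28, and Retnla is the plotted gene whose circle (3.10) and square (-0.86) lie on opposite sides of 0.

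Retnla and the class II antigen presentation genes Cd74, H2-Eb1 and H2-Ab1 also ranked among the 12 highest ratios, at 3.10, 2.74, 2.66 and 2.69. They came from a few cells: the 5 richest knock-in cells held 94.9% of the UMIs of Retnla and 96.9% of those of Cd74. In knock-in macrophages Retnla stood at 2937 CPM and Cd74 at 3803 CPM, against 33.5 CPM and 72.8 CPM in knock-in Entpd2 Cpz Gdf10 fibroblasts. With the cells of highest doublet scores left out, 19 in each library, the ratio of Retnla was -1.05 and that of Cd74 -0.87. Restricting the group to cells with at most 2 UMIs of macrophage and class II genes gave -0.89 and -0.37. That limit left 861 knock-in and 759 wild-type cells. Because it acts on class II genes themselves, their ratios under it are a description. Myh11, the heavy chain of smooth muscle myosin and one of the genes used to set fibroblasts apart, stood at 20.9 CPM in knock-in and 2.80 CPM in wild-type cells. Free RNA held 1665 CPM of it in the knock-in library, and after subtraction of an estimated free RNA share by any of these marker lists fewer than 3 of its counts were left in at least 1 library. The contractile list includes Myh11 itself, and each share subtracted is an upper limit. The loss of these counts therefore does not show where the Myh11 RNA came from.

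**Figure D4:**
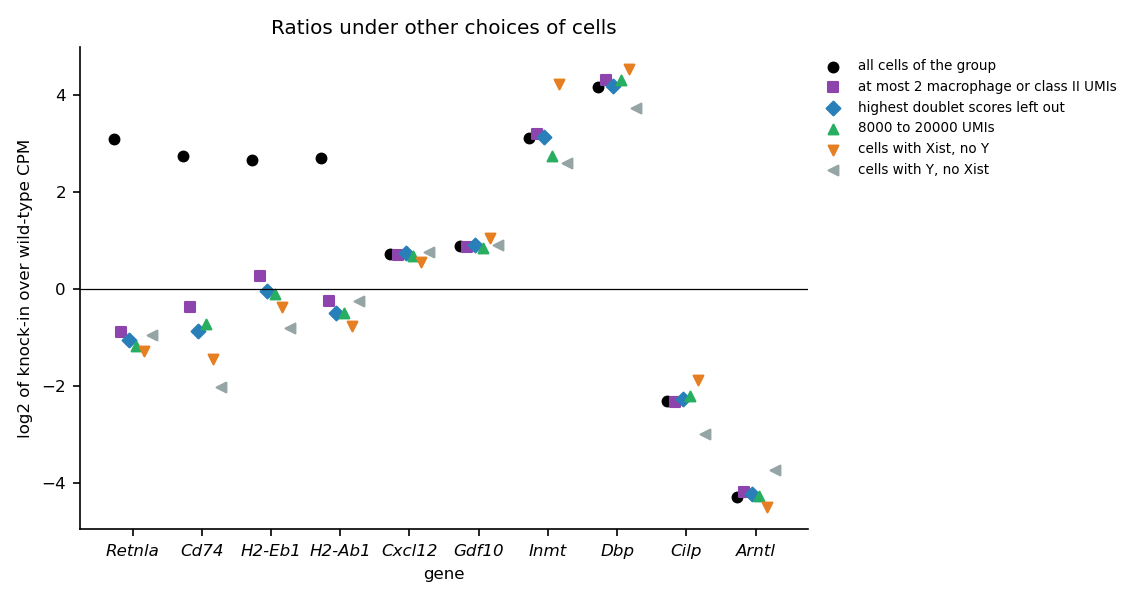
Log2 of knock-in over wild-type CPM in Entpd2 Cpz Gdf10 fibroblasts for 10 genes, with 1 symbol for each choice of cells. Retnla, Cd74, H2-Eb1 and H2-Ab1 are near 3 with all cells and near or below 0 under the other 5 choices, whereas Inmt, Dbp, Cilp and Arntl keep their side of 0.

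More elastic fibre genes were lower than higher in knock-in cells. Of 19 genes 6 were at least 1.5-fold lower (31.6%) and 1 higher (Ltbp1, 5.26%), against 8.09% and 6.69% over all genes. The median of the list was -0.39 against -0.25 in the other 2 groups and -0.08 over all genes. Eln differed by -0.98 (-0.9996 to -0.954), by -0.90 within female and -1.11 within male cells. Fbn1, which forms the microfibrils on which elastin is laid down, stood at 557 CPM in knock-in and 1056 CPM in wild-type cells. Its relative Fbn2, known from growing tissue, had 4 UMIs in knock-in and 200 UMIs in wild-type cells. The microfibril gene Mfap4 differed less, at 2025 CPM and 2655 CPM in knock-in and wild-type cells.

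Among fibrillar collagens and their processing enzymes none of 19 genes was at least 1.5-fold higher and 5 were lower (26.3%), against 6.69% and 8.09% over all genes. The median of the list was -0.37. Col1a1 stood at 18999 CPM in knock-in and 23502 CPM in wild-type cells, and Col1a2 at 24851 CPM and 28535 CPM. Col3a1 stood at 19220 CPM in knock-in and 24394 CPM in wild-type cells. Wider gaps were seen in the minor chain Col5a3 (58.5 CPM in knock-in and 114 CPM in wild-type cells) and the prolyl hydroxylase subunit P4ha3 (3.56 CPM and 11.8 CPM), the last with a ratio of -1.73 that was -0.17 in cells of 8000 to 20000 UMIs. Among genes of growing connective tissue 7 of 24 were at least 1.5-fold lower (29.2%) and 4 higher (16.7%), against 8.09% and 6.69% over all genes. Cthrc1, one of the lower genes, stood at 80.4 CPM in knock-in and 249 CPM in wild-type cells.

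Timp3, a tissue inhibitor of metalloproteinases that binds to the matrix, stood out from its list. It reached 904 CPM in knock-in and 284 CPM in wild-type cells, a ratio of 1.67 (1.61 to 1.72) against 0.94 in the other 2 groups. Within female cells its ratio was 1.63 and within male cells 1.73. Timp2 differed by 0.26, the procollagen protease Adamts2 by -0.18 and the aggrecan-cleaving protease Adamts4 by -1.41. Of 18 genes of the list 5 were at least 1.5-fold lower (27.8%) and 2 higher (11.1%), against 8.09% and 6.69% over all genes. Among small leucine-rich proteoglycans, which decorate collagen fibrils, Bgn (0.11) and Ogn (-0.01) were nearly level, Prelp was higher by 0.70 and Epyc lower by -2.03, the last on 30 knock-in and 215 wild-type UMIs. Within female cells Epyc differed by -0.50 (interval -1.58 to 0.50) and within male cells by -2.38. Of 17 basement membrane genes only Col4a6 was at least 1.5-fold apart, with 145 CPM in knock-in and 87.2 CPM in wild-type cells, while Lama2 differed by -0.09 and Col4a1 by -0.34.

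BMP targets were mostly level, and BMP ligands, receptors and antagonists differed in both directions. Id3, an inhibitor of basic helix-loop-helix factors that BMPs induce, stood at 1433 CPM in knock-in and 1195 CPM in wild-type cells, and Id2 at 197 CPM and 177 CPM. Bambi, a decoy receptor, was the 1 of 10 BMP targets past 1.5-fold, with 69.6 CPM in knock-in and 39.6 CPM in wild-type cells. Of 15 ligands and receptors 2 were at least 1.5-fold higher and 3 lower, against 6.69% and 8.09% over all genes. The metalloproteinase Bmp1 differed by -0.27, the receptor Bmpr2 by 0.22 and the ligand Bmp3 by -1.09. Bmp6 differed by 2.26 on 38 knock-in UMIs, all within 5 cells, and 14 wild-type UMIs. Of 12 secreted antagonists 5 were at least 1.5-fold lower (41.7%), among them Fst (61.7 CPM in knock-in and 143 CPM in wild-type cells) and Fstl1 (1139 CPM and 1806 CPM), and 2 were higher (16.7%). Sost, one of these 2, had 44 knock-in and 16 wild-type UMIs, and smooth muscle cells held 687 CPM of it in the knock-in library against 5.05 CPM in the group. Mgp itself stood at 10212 CPM in knock-in and 5954 CPM in wild-type cells (0.78, interval 0.77 to 0.79), with 0.87 within female and 0.77 within male cells, against 0.27 in Fmod Ccn5 and -0.21 in Tmem100 Ly6c1 fibroblasts. Its UMIs do not tell the mutated transcript from the wild-type one. Of 12 TGF-beta targets 1 was higher (8.33%) and 2 lower (16.7%) by 1.5-fold, and Tgfbi differed by 0.12.

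The families of Entpd2 and Cpz were examined because these genes name the group. Among 15 genes of extracellular nucleotide metabolism and purine receptors 6 were at least 1.5-fold higher (40%) and 3 lower (20%) in knock-in cells. The shares over all genes were 6.69% and 8.09%. Enpp3, an ectoenzyme that cleaves nucleotides, was level at 129 CPM in knock-in and 126 CPM in wild-type cells. Ank, which lets pyrophosphate leave the cell, had 44.4 CPM and 24.6 CPM, and Alpl, the phosphatase that removes pyrophosphate, had 3.10 CPM and 11.2 CPM in knock-in and wild-type cells. The ATP receptor P2rx7 differed by 1.08 on 77 knock-in and 64 wild-type UMIs, and macrophages of the knock-in library held 189 CPM of it. Among 7 metallocarboxypeptidases 3 were at least 1.5-fold higher (42.9%) and none lower, against the same shares over all genes. Cpe, which trims peptide hormones, stood at 553 CPM in knock-in and 334 CPM in wild-type cells, and smooth muscle cells and free RNA of the knock-in library held 1874 CPM and 2176 CPM of it. Its ratio of 0.73 was 0.44, 0.68 and 0.64 after subtraction of free RNA by the macrophage, contractile and other smooth muscle markers. Aebp1, a matrix protein of the family, had 1196 CPM and 860 CPM in knock-in and wild-type cells.

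Growth regulators differed in both directions. The imprinted growth genes had a median of -0.74 against -0.65 in the other 2 groups. Of 13 of them 8 were at least 1.5-fold lower (61.5%) and none higher, against 8.09% and 6.69% over all genes. Among them Grb10, which restrains insulin signalling, had 124 CPM in knock-in and 209 CPM in wild-type cells, and Meg3 had 778 CPM and 1141 CPM. Dlk1 and Zim1 had 5 and 17 UMIs in knock-in cells, against 90 and 203 in wild-type cells. Of the wild-type Dlk1 UMIs, 61.1% lay in 5 cells. In the insulin-like growth factor axis Igfbp5 was higher, with 1012 CPM in knock-in and 527 CPM in wild-type cells, and Igfbp3 lower, with 3.56 CPM and 15.9 CPM, whereas Igfbp7 and Igfbp4 differed by 0.24 and -0.07. Igfbp3 rested on few cells, as 5 cells held 80.6% of its knock-in and 56.1% of its wild-type UMIs. Among secreted Wnt modulators Sfrp2 stood at 907 CPM in knock-in and 434 CPM in wild-type cells (1.06, interval 1.01 to 1.11), and the Wnt inhibitor Dkk2 at 5.28 CPM and 16.5 CPM. Of the Dkk2 UMIs, 5 cells held 71.7% in the knock-in and 44.7% in the wild-type library. Rspo3, which enhances Wnt signals, had 71 knock-in and 18 wild-type UMIs. Of 24 growth factors and receptors 6 were at least 1.5-fold higher (25%) and 2 lower (8.33%), against 6.69% and 8.09% over all genes. Hgf, a growth factor that acts on epithelial and endothelial cells, had 6.08 CPM in knock-in and 1.70 CPM in wild-type cells, while Gas6 (0.13) and Fgfr1 (0.18) were nearly level.

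Immune signalling genes past 1.5-fold were mostly higher in knock-in cells, but the chemokines differed between the sexes. Of 13 chemokines 5 were at least 1.5-fold higher (38.5%) and 2 lower (15.4%), against 6.69% and 8.09% over all genes. Their median was 0.33 against 0.93 in the other 2 groups, and it was -0.18 within female and 0.85 within male cells. Cxcl12 differed by 0.73 (0.67 to 0.79), and Cx3cl1 by 3.49 on 96 knock-in and 15 wild-type UMIs. Cxcl1, which draws neutrophils, stood at 282 CPM in knock-in and 202 CPM in wild-type cells, with ratios of -0.65 within female and 1.83 within male cells. Among 14 complement genes 3 were higher (21.4%) and 1 lower (7.14%) by 1.5-fold, the lower one being Cd55, a gene of the rule. C4b had 77.1 CPM in knock-in and 30.1 CPM in wild-type cells, with a ratio of 1.36 that was 0.55 within females, and the extracellular chaperone Clu had 59.6 CPM and 31.2 CPM. The complement regulator Serping1 differed by 0.27. Of 12 interferon response genes 3 were higher (25.0%), among them Ifit3 by 0.91 (0.28 in thinned cells), and Ifitm3 differed by 0.37.

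Lipid and steroid genes held some of the wider gaps. G0s2, an inhibitor of fat breakdown, stood at 270 CPM in knock-in and 60.9 CPM in wild-type cells (2.15, interval 2.04 to 2.26), and Dgat2, which makes triglycerides, had 80 and 31 UMIs. Apoe stood at 1134 CPM in knock-in and 628 CPM in wild-type cells, a ratio of 0.85. Within female cells it stood at 1399 CPM in knock-in and 489 CPM in wild-type cells (1.52), and within male cells at 884 CPM and 723 CPM (0.29). Macrophages of the knock-in library held 10183 CPM of Apoe and its free RNA 2017 CPM. The ratio was 0.91 after subtraction of free RNA by the macrophage markers, and 0.90 in cells with at most 2 UMIs of macrophage and class II genes. Hsd11b1, which activates glucocorticoids, had 82.3 CPM in knock-in and 23.9 CPM in wild-type cells, and the retinal reductase Dhrs3 had 16.9 CPM and 41.5 CPM. The adipogenic transcription factor Cebpd was nearly level, at 0.09.

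Transcription factors of mesenchyme differed in both directions. Of 25 genes 4 were at least 1.5-fold higher (16.0%) and 4 lower (16.0%), against 6.69% and 8.09% over all genes, with a median of 0.03. Ebf1 (372 CPM in knock-in and 338 CPM in wild-type cells) and Prrx1 (364 CPM and 317 CPM) differed little. Meox1, the relative of Meox2, had 2.52 CPM in knock-in and 12.6 CPM in wild-type cells and Tcf21, a factor of fibroblast precursors, 6.88 CPM and 21.9 CPM, whereas Meox2 differed by -0.20. Within female cells Meox1 differed by -0.30 (interval -1.31 to 0.67) and within male cells by -3.91. Among adventitial progenitor genes none of 15 was higher and 5 were lower (33.3%) by 1.5-fold, against the same shares over all genes. Pi16 stood at 1072 CPM in knock-in and 1153 CPM in wild-type cells and Klf4 at 943 CPM and 1244 CPM. Hox genes, which record position along the body axis, had medians of -0.20 (anterior) and -0.13 (posterior), with Hoxa7 at 60.4 CPM in knock-in and 52.7 CPM in wild-type cells and Hoxb2 at 24.4 CPM and 34.0 CPM. Anterior Hox genes were seen in 48.9% of knock-in and 52.2% of wild-type cells thinned to 5000 UMIs, and posterior ones in 52.7% and 53.5%.

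Early response genes, which digestion can induce, were nearly level, with Fos at 5049 CPM in knock-in and 4908 CPM in wild-type cells, Jun at 2566 CPM and 2720 CPM, and Ier3 the widest at 0.90. Of 18 cell cycle genes 10 were at least 1.5-fold lower (55.6%) and none higher, against 8.09% and 6.69% over all genes. The cell cycle list had a median of -0.69 against -1.64 in the other 2 groups. Ccnb2, a cyclin of dividing cells, was seen in 1.59% of knock-in and 4.42% of wild-type cells, and any gene of the list in 81.6% and 82.9% of cells thinned to 5000 UMIs. The median of the list was -2.26 within female and 0.105 within male cells. Mcm5, a replication factor, had 18 knock-in and 88 wild-type UMIs, and Ccnd2, a cyclin that is not limited to dividing cells, was seen in 72.0% of knock-in and 84.1% of wild-type cells and differed by 0.35. In cells of 8000 to 20000 UMIs the ratio of Mcm5 was -0.12. Of the mitochondrially encoded genes mt-Atp8 differed by 1.98, while its neighbour mt-Atp6, whose message it shares, differed by 0.24.

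**Figure D5:**
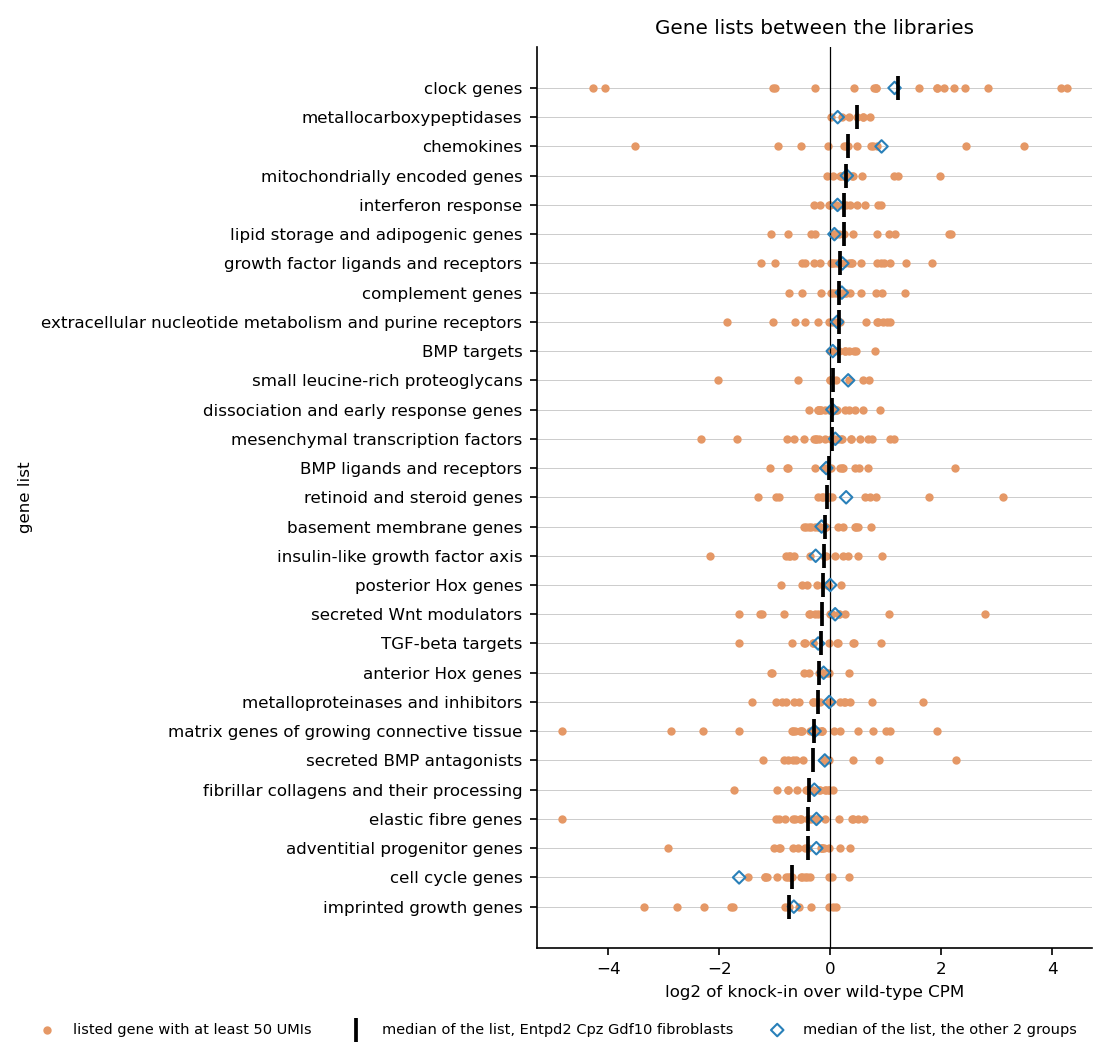
Log2 of knock-in over wild-type CPM by gene list. Small dots are listed genes with at least 50 UMIs in Entpd2 Cpz Gdf10 fibroblasts, black bars the median over listed genes with at least 10 UMIs there, and open diamonds the median of the same genes in the other 2 groups of fibroblasts. The clock genes have the highest median (1.22) and the imprinted growth genes the lowest (-0.74).

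Some genes differed between the libraries in another way than in the other fibroblasts. Besides Retnla and Cd74, the intervals lay farthest above those of the other 2 groups for Ube2c (-0.45 against -2.57), Cenpf (-0.72 against -2.58) and Rcan2 (0.75 against -0.81). Ube2c and Cenpf act in cell division, and 5 cells held 97.3% and 92.6% of their knock-in UMIs. The ratio of Ube2c was -6.66 within female cells, on 1 knock-in and 148 wild-type UMIs. Within male cells it was 0.29 (interval -0.08 to 0.65). The ratio of Rcan2 was -0.34, 0.68 and 1.36 after subtraction of free RNA by the macrophage, contractile and other smooth muscle markers. Farthest below were the chemokines Ccl2 (-0.52 against 0.98) and Ccl7 (-0.94 against 0.27), Col8a1 (-2.38 against -0.95), the Wnt modulator Sfrp4 (-0.27 against 0.81) and Fn1, which encodes fibronectin (-0.29 against 0.74). The other 2 groups differed from each other: Fn1 differed by -0.39 in Fmod Ccn5 and 0.96 in Tmem100 Ly6c1 fibroblasts, and Sfrp4 by -0.09 and 1.75. Fn1 stood at 935 CPM in knock-in and 1143 CPM in wild-type Entpd2 Cpz Gdf10 fibroblasts, at 273 CPM and 359 CPM in Fmod Ccn5 and at 5995 CPM and 3074 CPM in Tmem100 Ly6c1 fibroblasts.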

How the data were processed

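The deposited values are UMI counts per gene and barcode over all barcodes, which the authors made with Cell Ranger 7.1.0, per the submitters' processing notes. The genome build was not given in the sources used here. Cells and groups were set by the limits given in the report, and UMIs were summed per library and group and scaled to CPM. Log2 ratios carry exact conditional binomial intervals and shares Clopper-Pearson intervals, all at 95%, with a floor of 3 counts. Genes with at least 50 UMIs over both libraries were counted as 1.5-fold apart, and list medians used genes with at least 10 UMIs and 0.5 added to each sum. Doublets were kept, and as an alternative the highest scrublet scores (scanpy 1.11.5), 0.8% per 1000 cells, were left out. Thinning drew 5000 UMIs per cell, which left out 199 knock-in and 62 wild-type cells of the group. Female cells had Xist and no Y-linked UMIs, male cells the reverse. The genes named are the 12 highest and 12 lowest by the interval bound nearest 0 with at least 20 CPM, the 15 highest and 8 lowest against the other fibroblasts, the 5 farthest above and 5 farthest below those fibroblasts in ratio, and about 1 to 4 of the most abundant or most different from each of 29 gene lists, with mitochondrial, ribosomal, sex-linked and unnamed genes left out of all but the lists; Ltbp1 and the genes of the closing observations were chosen after their values were seen. Members and lists were chosen with earlier results of these data known. The ratio and interval were tested on simulated sums drawn independently for each gene with counting error only. Spread of UMIs between cells or mice was not simulated, and the intervals do not cover it. Software was Python 3.11.15, pandas 2.3.3, scipy 1.17.1 and numpy 2.4.6. Values of a few genes that these rules select are not reported here.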

Additional observations from a re-analysis of the deposited data

Results flagged for a closer look

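Among the genes named in the text and those of the rule, with at least 50 UMIs, the counting intervals of Entpd2 Cpz Gdf10 fibroblasts and of the other 2 groups lay on opposite sides of 0 for 11 genes, and these differences between groups were not tested. Retnla, Rcan2, Ccl2, Ccl7, Sfrp4 and Fn1 are among the genes picked for a wide gap between these intervals. The count is therefore a description, and the share over all genes is not given here. Retnla differed by 3.10 against -0.86, Rcan2 by 0.75 against -0.81 and Foxd2os by 0.58 against -0.33. Ccl2 differed by -0.52 against 0.98, Ccl7 by -0.94 against 0.27, Sfrp4 by -0.27 against 0.81 and Fn1 by -0.29 against 0.74. Igfbp4 (-0.070 against 0.07) and Ly6a (-0.16 against 0.13) differed by little. Of the rule genes, whose levels the choice of cells limits and whose ratios are a description, Rbp4 differed by 0.63 against -0.18 and Ly6c1 by -0.20 against 0.08. In Fmod Ccn5 fibroblasts alone Fn1 and Sfrp4 were at -0.39 and -0.09.

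Among the same genes, with at least 50 UMIs in each sex, the intervals of female and male cells of the group lay on opposite sides of 0 for 9 genes, again untested. For this count too, the share over all genes is not given here. Of the rule genes, Entpd2 differed by 0.14 within female and -0.14 within male cells, Cpz by 0.33 and -0.17, and Ccn5 by 0.50 and -0.87. The neutrophil chemokine Cxcl1 stood at 207 CPM in knock-in and 325 CPM in wild-type female cells (-0.65), and at 417 CPM and 117 CPM in male cells (1.83). Ccl2 differed by -1.41 within female and 0.68 within male cells, and Cenpf by -3.97 and 0.45. Over both sexes, 5 cells held 46.7% of knock-in and 49.5% of wild-type Ccl2 UMIs. Smaller gaps were those of Ogn (0.28 and -0.19), Pcolce (-0.16 and 0.07) and Jun (0.046 and -0.09), in female and male cells in that order.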

How the results depend on the processing

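No paired analysis was possible because each genotype has 1 library. As a share of fibroblasts, the group was 26.8% of knock-in cells with a sum of at least 5 UMIs, 27.2% after thinning and 26.8% within males, against 29.2% as reported, and 26.7% of wild-type cells after thinning, 38.7% in cells of 8000 to 20000 UMIs and 27.1% within males, against 29.4%. As a share of kept cells, the knock-in value moved to 12.6% with at least 5 UMIs, 16.2% with at most 5% mitochondrial UMIs, 11.3% after thinning, 11.4% in cells of 8000 to 20000 UMIs and 10.95% within females, and the wild-type value to 20.4% after thinning, 24.8% in cells of 8000 to 20000 UMIs and 21.2% within males. At 10 UMIs in place of 50, 1704 genes were higher and 1737 lower, and in cells of 8000 to 20000 UMIs 605 were lower; the cause was not tested. The signs of called ratios reversed as follows, with the cause not tested. In cells of 8000 to 20000 UMIs, Retnla was -1.18, Cd74 -0.72, H2-Ab1 -0.49, H2-Eb1 -0.094, Tnfrsf11b 0.41 and the cell cycle median 0.42. Without the highest doublet scores Retnla was -1.05, Cd74 -0.87, H2-Ab1 -0.49 and H2-Eb1 -0.030. Within females Retnla was -1.28, Cd74 -1.45, H2-Ab1 -0.77 and H2-Eb1 -0.37. Within males they were -0.94, -2.02, -0.26 and -0.81, Cenpf was 0.45 and the cell cycle median 0.105. With at most 2 UMIs of macrophage and class II genes, a limit chosen after seeing the data, Retnla was -0.89, Cd74 -0.37 and H2-Ab1 -0.26. With free RNA subtracted by macrophage markers Rcan2 was -0.34, against 0.68 and 1.36 by 2 other marker lists, added after seeing the data, and with a sum of at least 5 UMIs Bmp6 was -1.36. Values that kept their sign but moved by over 1.5-fold included Igfbp3 (-1.21 within females and -3.28 within males), Bmp3 (-2.12 within males), Dlk1 (-2.55 within females and -4.97 within males), Sost (0.97 after thinning) and Ccl7 (-0.16 after thinning). The lowest ratio of Sost over its alternatives was 0.33. Of the 12 lowest ratios none changed sign under the 16 alternatives. With 1 library per genotype, differences between mice or dissections cannot be separated from the genotype, and genes under 50 UMIs are poorly resolved.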

Other observations

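Some genes of secreted proteins had a variance far above their mean over cells of the group. With each cell thinned to 5000 UMIs, the variance of Mgp was 84.8 times its mean over knock-in cells and 47.8 times over wild-type cells, the highest such ratio when genes of at least 0.05 UMIs per cell were ordered by the lower of their values in the 2 libraries. Elastin (18.8 in knock-in and 28.2 in wild-type cells), Igfbp5 (14.4 and 20.7), Apoe (22.5 and 12.3) and Sfrp2 (19.1 and 9.85) were also among the 25 genes highest in this order. So were the abundant matrix genes Col1a2, Sparc and Col1a1, and the ratio was not adjusted for the level of a gene. Complement C3 (11.2 in knock-in and 10.5 in wild-type cells), the chemokine Cxcl2 (15.3 and 12.2) and the metal-binding Mt1 (15.7 and 10.3) were on that list too. The metallothionein Mt1 stood at 3107 CPM in knock-in and 1787 CPM in wild-type cells. These ratios describe thinned cells of a single library each and carry no error between mice.

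Posterior Hox genes were seen in 36.7% of thinned wild-type Tmem100 Ly6c1 fibroblasts (32.1 to 41.3), against 53.5% (49.9 to 57.0) of wild-type Entpd2 Cpz Gdf10 fibroblasts. In the knock-in library the shares were 50.2% (44.4 to 55.9) and 52.7% (48.9 to 56.5).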
